A study of Rattus norvegicus with 15 samples.

Results

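The proteasome genes of the rat heart were followed through severe acute pancreatitis (SAP). They were taken as every probe set whose gene symbol starts with Psma, Psmb, Psmc, Psmd or Psme followed by a number. The rule found 43 probe sets, each for a different gene, among 23188 on the array, of which 15049 had a symbol. The 43 fell into 8 genes of the alpha ring (Psma1 to Psma8), 7 of the constitutive beta ring (Psmb1 to Psmb7), 3 immunoproteasome genes (Psmb8, Psmb9 and Psmb10), 6 ATPases (Psmc1 to Psmc6) and 10 non-ATPase subunits of the regulatory particle, 3 chaperones that help to assemble that particle (Psmd5, Psmd9 and Psmd10) and 4 activators (Psme1 to Psme4). The other 2, Psmc3ip and Psme3ip1, match by name only. Psmc3ip is a meiotic recombination factor and Psme3ip1 a protein that binds the activator Psme3, so 41 probe sets stand for the proteasome itself. Psmd11, a regulatory particle subunit, and Psmb11, a thymus form of a catalytic subunit, were not analysed here.

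The proteasome is the protease of cytosol and nucleus that destroys proteins tagged with ubiquitin. Its core is a barrel of stacked rings: the alpha rings guard the entrance and the beta rings carry the cutting sites. The regulatory particle caps the barrel, where its non-ATPase subunits bind and remove ubiquitin and its ATPases unfold the substrate and feed it in. Under interferon, cells make the immunosubunits Psmb8, Psmb9 and Psmb10, which take the places of the catalytic subunits Psmb5, Psmb6 and Psmb7 and favour peptides for class I antigen presentation. In heart muscle, this system clears damaged and worn contractile proteins.

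Hearts came from male Sprague-Dawley rats aged 8 to 10 weeks. SAP was induced by driving 5% sodium taurocholate, a bile salt, up the pancreatic and bile ducts, and hearts were collected 12 h or 24 h later (SAP 12 h and SAP 24 h, 5 arrays each); sham-operated rats gave the other 5 arrays. The labels conflict in places: the series title gives ischemia/reperfusion, and the extraction note adds mice and other hours to it. The labels of the single samples were therefore followed. The design text names a mouse array, but the probe set names belong to a rat array. The labels name no batch, and neither the hour of day of collection nor the time of the sham collection is given in the sources used here.

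The deposited values were read as log2 expression, which rests on the name of the deposited table as RMA output, and every fold below holds only on that scale. Array medians lay between 5.9 and 5.98 log2. The 9 measured cardiomyocyte markers were abundant on every array, with means between 18.03 and 18.45 log2. In 4 arrays (SAP 12 h replicates 3 and 4, and sham replicates 2 and 3) both atrial markers Myl4 and Sln exceeded 12 log2, whereas in the other 11 arrays, all SAP 24 h arrays included, neither did. These arrays are called atrium-rich here, and calls described below that are lost or gained without them are given both ways. The other 11 arrays were not alike either. The 6 measured atrial markers were all lower in the mean of SAP 24 h than of sham hearts, with a median log2 fold change of -3.69, and Myl7, the atrial myosin light chain, was called lower (-7.93, adjusted p = 0.0354). Myl7 read between 5.75 and 11.3 log2 on the SAP 24 h arrays, between 6.69 and 12.62 on the other 3 SAP 12 h arrays and between 13.08 and 13.9 on the other 3 sham arrays, so the 3 sham arrays remained above all these SAP arrays. In the fit without the 4 atrium-rich arrays, Myl7 (-6.04, adjusted p = 0.0192) and Sln (-2.66, adjusted p = 0.00476) were called lower at 24 h, and Sln at 12 h (-2.99, adjusted p = 0.00419). Leaving out the 4 arrays thus did not level the atrial markers between SAP and sham hearts. The part of atrial tissue in the values below was not tested beyond that fit and a fit with the atrial marker mean as a covariate. Hearts were measured in bulk, so fewer cells of a type and less RNA per cell cannot be told apart.

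Few proteasome genes changed, and those that did were higher in SAP. At 12 h, 3 of the 43 probe sets were called higher and 0 lower in SAP hearts by limma at an adjusted p under 0.05, the p-values being adjusted over all 23188 probe sets. The called share of 6.98% stands beside a background of 4.92% of all probe sets called at 12 h (2.35% higher and 2.57% lower). At 24 h 1 member was called higher and 0 lower, a share of 2.33% against a background of 3.37% (1.23% higher and 2.14% lower). The proteasome set as a whole was thus called about as often as the rest of the array. The median log2 fold change of the 43 was 0.11 at 12 h and 0.01 at 24 h, against 0.01 and 0.02 over all probe sets. At an unadjusted p under 0.05, 7 members passed at 12 h and 7 at 24 h, or 16.3% each, where 16% and 16.4% of all probe sets did. The called genes were Psmd8, Psmc5 and Psmd5 at 12 h and Psmd5 at 24 h, all of the regulatory particle or its assembly.

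**Figure D1:**
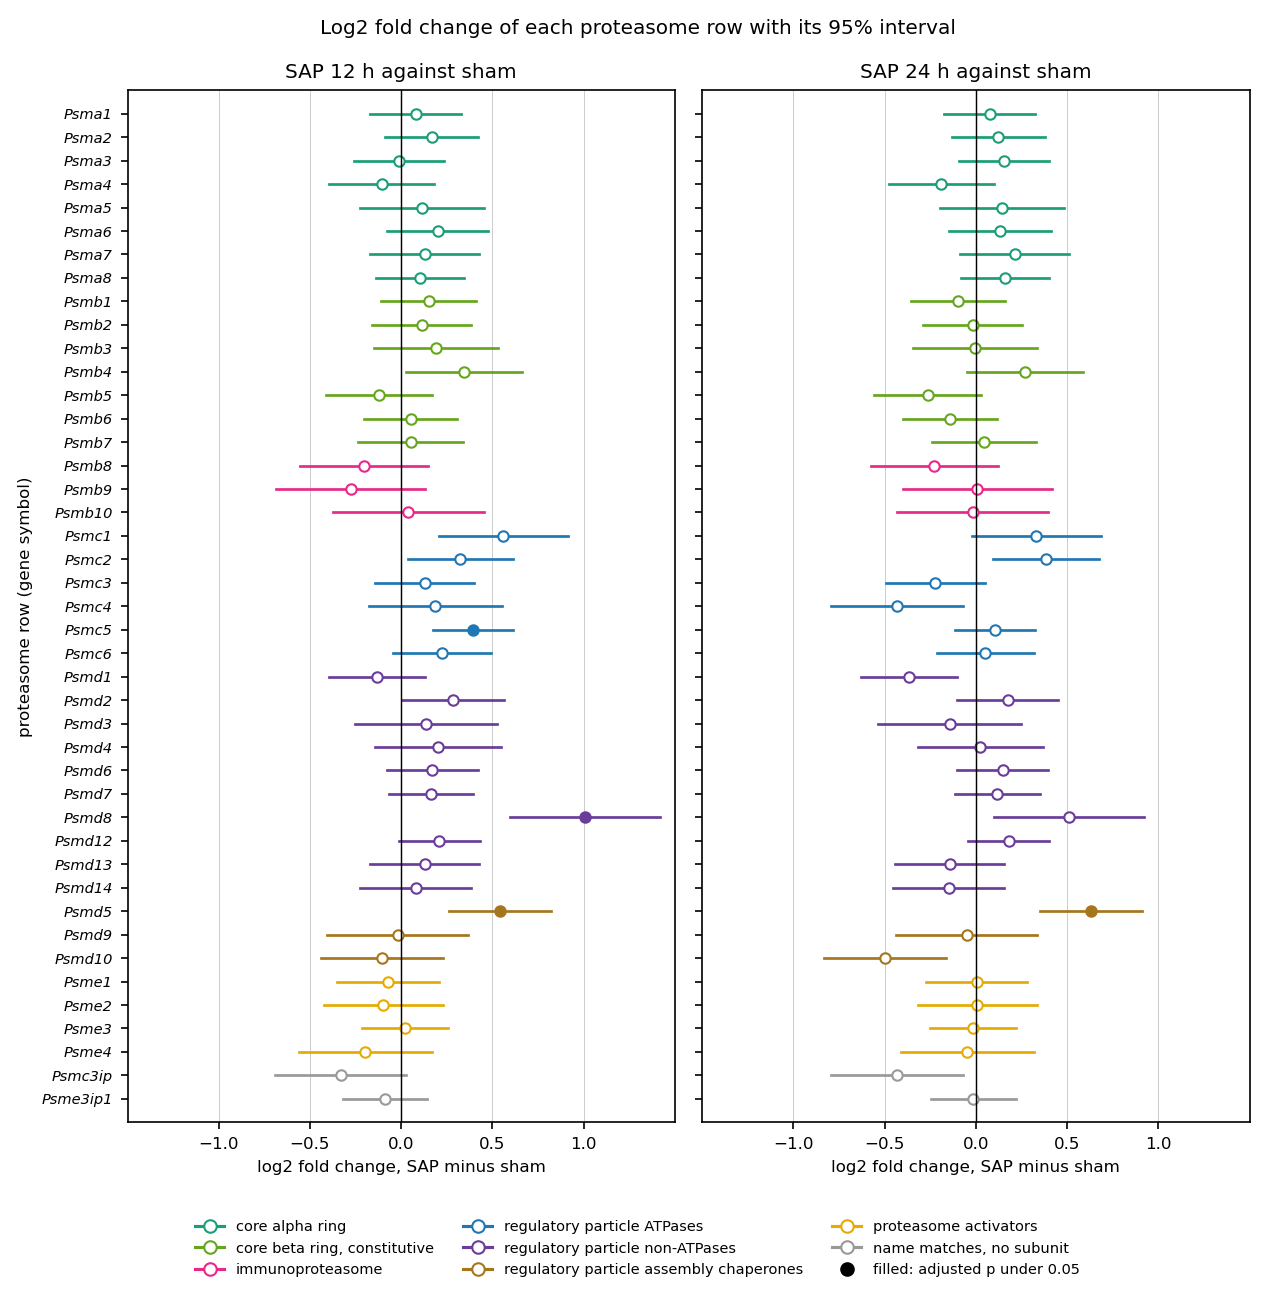
Log2 fold change of each of the 43 proteasome probe sets with its 95% interval, in SAP 12 h against sham hearts (left) and SAP 24 h against sham hearts (right), coloured by role; filled points passed an adjusted p under 0.05. Psmd8, Psmc5 and Psmd5 are filled at 12 h and only Psmd5 at 24 h, and most other intervals cross 0.

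Of the 16 regulatory particle subunits, 2 were called at 12 h (12.5%, against 4.92% of all probe sets) and 0 at 24 h (against 3.37%). The third called gene, Psmd5, is an assembly chaperone. The promoter windows of the 3 called genes are shown first, because the changes below rest on these genes; each runs from 250 bases before to 50 bases after the gene's start and comes from RefSeq on the GRCr8 assembly. Psmd8 lies at chr1:93608640-93608939 on the minus strand, Psmc5 at chr10:91687303-91687602 on the plus strand and Psmd5 at chr3:38548441-38548740 on the minus strand. The capitals mark matches to the GC box GGGCGG, read on both strands.
Psmd8: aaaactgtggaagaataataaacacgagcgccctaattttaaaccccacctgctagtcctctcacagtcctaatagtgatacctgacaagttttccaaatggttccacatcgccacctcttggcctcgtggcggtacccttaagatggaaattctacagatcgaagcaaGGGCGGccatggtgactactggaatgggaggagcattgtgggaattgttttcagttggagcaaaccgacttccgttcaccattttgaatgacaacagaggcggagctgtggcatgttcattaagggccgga
Psmc5: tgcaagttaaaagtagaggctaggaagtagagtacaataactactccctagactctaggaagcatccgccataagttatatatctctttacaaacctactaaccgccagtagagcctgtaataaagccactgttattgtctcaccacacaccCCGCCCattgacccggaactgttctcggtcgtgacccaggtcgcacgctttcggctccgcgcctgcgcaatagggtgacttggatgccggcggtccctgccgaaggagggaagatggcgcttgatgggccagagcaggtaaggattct
Psmd5: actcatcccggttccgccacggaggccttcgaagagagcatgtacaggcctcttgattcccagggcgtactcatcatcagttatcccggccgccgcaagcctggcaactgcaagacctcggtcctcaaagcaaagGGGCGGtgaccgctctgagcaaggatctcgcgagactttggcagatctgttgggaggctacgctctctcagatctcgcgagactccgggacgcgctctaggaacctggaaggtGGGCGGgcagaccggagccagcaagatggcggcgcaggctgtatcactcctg
Psmd8 and Psmc5 each hold 1 GC box and Psmd5 holds 2, of which the nearer one begins 2 bases before the start. Of the 39 members with a promoter in the RefSeq table, 28 (71.8%) hold a GC box, against 33.1% of all 33469 promoters of the same length. None of the 3 windows holds the CCAAT box, the antioxidant element core TGACNNNGC or the interferon-stimulated element core (GAAA, any NN, then GAAA). Among the 39 members, 21 (53.8%) hold the CCAAT box, 8 (20.5%) the antioxidant core and 6 (15.4%) the interferon core. Over all promoters the shares are 37.5%, 12.1% and 3.92%. Most of all promoters lack each of these motifs, so their absence from 3 windows says little. The motifs were chosen after expression values were known, and a match describes letters, not binding.

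Psmd8 is a lid subunit of the regulatory particle and had the largest change among the 43. Its probe set read 10.90, 10.89, 9.76, 10.22 and 10.25 log2 in the SAP 12 h hearts, 9.54, 10.30, 9.89, 10.07 and 9.73 in the SAP 24 h hearts, and 9.31, 9.48, 9.51, 9.15 and 9.52 in the sham hearts. Every SAP array, at either time, lay above every sham array, and the atrium-rich SAP 12 h replicate 3 was the lowest of its group. At 12 h the gene was 2.01-fold higher in SAP hearts (log2 fold change 1.01 ± 0.20 SE, 95% interval 0.60 to 1.42, adjusted p = 0.00447, n = 5 each). At 24 h the log2 fold change was 0.51 (0.10 to 0.92, adjusted p = 0.175), which did not pass the test although the groups did not overlap. Groups without overlap and higher in SAP were found for 2.34% of all probe sets at 12 h and 2.62% at 24 h. The 12 h call of Psmd8 was kept with each array left out in turn (adjusted p between 9.86e-04 and 0.0155) and without the 4 atrium-rich arrays.

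Psmd5 is a chaperone that holds a part of the base until the regulatory particle is assembled. It read 9.40, 9.44, 9.54, 9.67 and 9.57 log2 in the SAP 12 h hearts, 9.19, 9.82, 9.98, 9.62 and 9.46 in the SAP 24 h hearts, and 9.0, 9.02, 8.82, 8.93 and 9.14 in the sham hearts. No SAP array overlapped the sham arrays at either time, and SAP 24 h replicate 1 came closest. Psmd5 rose 1.46-fold at 12 h (log2 fold change 0.54 ± 0.13 SE, adjusted p = 0.0229) and 1.55-fold at 24 h (0.63 ± 0.13 SE, adjusted p = 0.0130). It was the one member called at both times. The 24 h call held with each array left out in turn (adjusted p up to 0.0438), whereas the 12 h call was lost when sham replicate 3, sham replicate 4 or SAP 12 h replicate 4 was left out (up to 0.0587). Without the 4 atrium-rich arrays the log2 fold changes were 0.45 at 12 h (adjusted p = 0.293) and 0.59 at 24 h (0.0889), so neither call held.

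The other assembly chaperones did not pass the test. Psmd10, known as gankyrin, read 7.02, 7.39, 7.55, 7.64 and 7.74 log2 at 12 h, 7.37, 6.79, 7.53, 6.81 and 6.88 at 24 h, and 7.63, 7.62, 7.61, 7.44 and 7.57 in sham hearts. At 24 h, 4 of the 5 SAP arrays lay below all sham arrays and replicate 3 among them, with a log2 fold change of -0.50 (95% interval -0.83 to -0.16, adjusted p = 0.0983). Without SAP 24 h replicate 3, the highest of that group, Psmd10 passed the test as lower (log2 fold change -0.61, adjusted p = 0.0443). Psmd9 had log2 fold changes of -0.02 at 12 h and -0.05 at 24 h, and without the 4 atrium-rich arrays of 0.33 (adjusted p = 0.589) and 0.13 (adjusted p = 0.825).

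Among the 6 ATPases, all had a positive log2 fold change at 12 h, with a median of 0.27, and 1 was called. Psmc5 read 12.69, 12.81, 12.37, 12.60 and 12.67 log2 in the SAP 12 h hearts, 12.18, 12.36, 12.40, 12.34 and 12.40 in the SAP 24 h hearts, and 12.21, 12.30, 12.12, 12.26 and 12.27 in the sham hearts. The 12 h arrays lay above all sham arrays, whereas the 24 h arrays overlapped them. Psmc5 rose 1.32-fold at 12 h (log2 fold change 0.40 ± 0.10 SE, adjusted p = 0.0333), and at 24 h the log2 fold change was 0.10 (adjusted p = 0.687). This call was the least stable of the 3: it was lost with 9 of the 15 arrays when each was left out in turn (adjusted p up to 0.0759, without sham replicate 3), and without the 4 atrium-rich arrays (0.0764).

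Psmc1 had a larger log2 fold change than Psmc5 at 12 h, 0.56 (0.21 to 0.91), with an adjusted p of 0.0668. Its arrays read 12.60, 12.82, 11.90, 12.19 and 12.26 log2 in SAP 12 h hearts and 12.01, 11.90, 11.33, 11.98 and 11.75 in sham hearts. The atrium-rich replicate 3 was the lowest array in both groups, and the overlap came from the SAP 12 h one. Without that array Psmc1 passed the test (log2 fold change 0.67, adjusted p = 0.0241). The lowest ATPase at 12 h was Psmc3, at 0.13. At 24 h the ATPases spread in both directions, between Psmc2 at 0.38 (adjusted p = 0.145) and Psmc4 at -0.43 (adjusted p = 0.200), and their median was 0.08.

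Of the 10 non-ATPase subunits, 9 had a positive log2 fold change at 12 h, with a median of 0.17, and Psmd8 alone was called. Psmd1, a large scaffold subunit, was the exception at 12 h, at -0.13 (adjusted p = 0.699). At 24 h Psmd1 read 12.47, 12.38, 12.58, 12.55 and 12.05 log2 in SAP hearts and 12.81, 12.63, 12.66, 12.89 and 12.86 in sham hearts, so every SAP array lay below every sham array. Its log2 fold change of -0.36 (-0.63 to -0.10) missed the test (adjusted p = 0.125), and groups lower in SAP without overlap made up 3.37% of all probe sets at 24 h. The other 8 non-ATPase subunits, among them the ubiquitin receptor Psmd4 and the deubiquitinase Psmd14, lay between 0.08 and 0.28 at 12 h and between -0.15 and 0.18 at 24 h.

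With ATPase and non-ATPase subunits put together, 15 of 16 regulatory particle genes were higher in the mean of SAP hearts at 12 h and 10 of 16 at 24 h, counting signs without a test. Over all probe sets 51.9% and 54.6% had a positive sign. The 16 genes share the same 15 arrays, so these signs are not independent of each other. At 12 h, 12 of the 15 core genes of the alpha and constitutive beta rings were also positive.

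**Figure D2:**
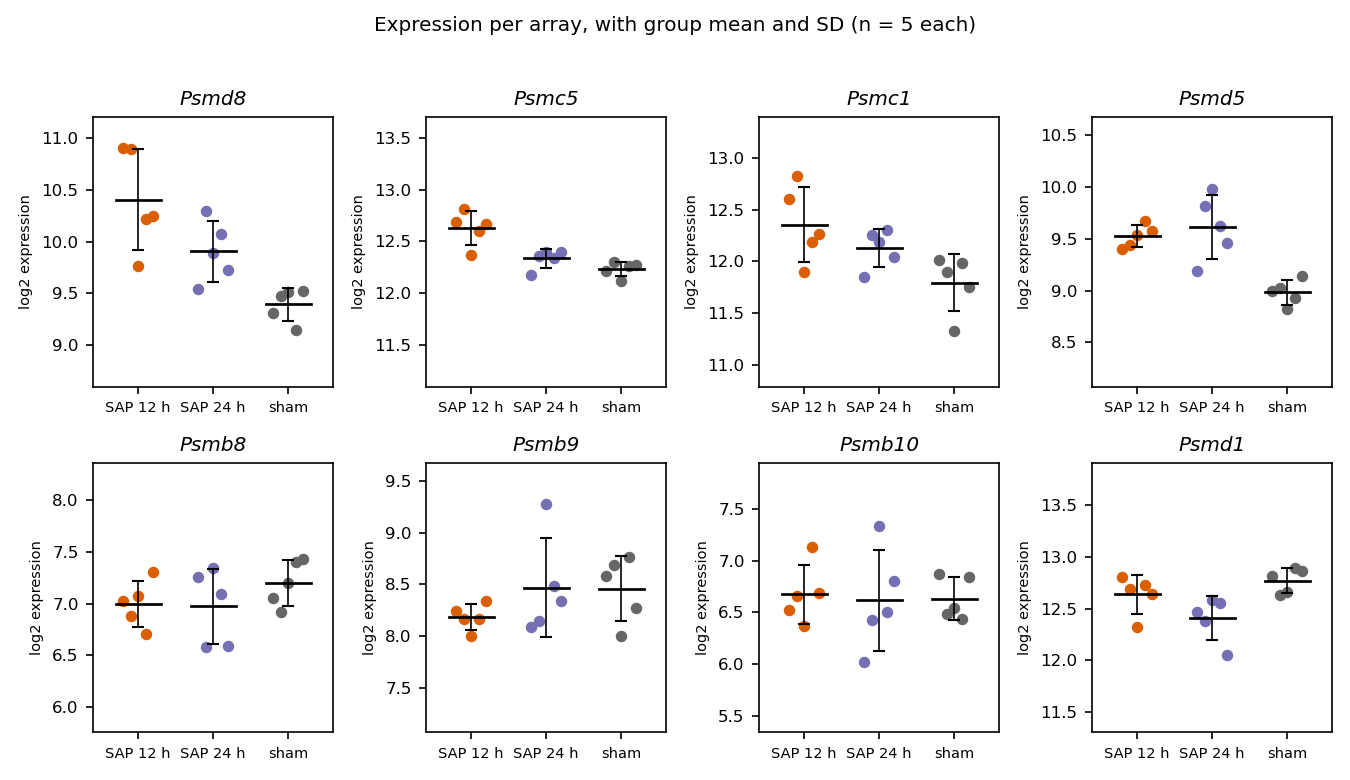
Log2 expression of 8 proteasome genes on each array, with SAP 12 h, SAP 24 h and sham hearts side by side; bars give the group mean and SD (n = 5 each), and axes do not start at 0. Psmd8 and Psmd5 lie above all sham arrays at both times and Psmc5 at 12 h, whereas the immunosubunits Psmb8, Psmb9 and Psmb10 overlap between groups.

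No core subunit was called at either time. In the alpha ring, log2 fold changes at 12 h ran between -0.11 for Psma4 and 0.20 for Psma6, with a median of 0.11. At 24 h they ran between -0.19 for Psma4 and 0.21 for Psma7, with a median of 0.14. The smallest adjusted p in the ring was 0.526 at 12 h and 0.50 at 24 h. Psma8, which replaces Psma7 in the testis, read between 3.64 and 4.27 log2 on all 15 arrays. The 10 measured pancreatic acinar genes, a guide to background in heart, had a median of 4.62 (1 of them, Ctrb1, was called higher at 24 h, 0.77, and without the 4 atrium-rich arrays also at 12 h, 0.83), so the values of Psma8 give no more than a bound on its expression.

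In the constitutive beta ring the log2 fold changes ran between -0.12 for Psmb5 and 0.34 for Psmb4 at 12 h, and between -0.26 for Psmb5 and 0.27 for Psmb4 at 24 h. Psmb4, a structural subunit of that ring, read 14.55, 14.19, 13.72, 14.33 and 14.40 log2 in SAP 12 h hearts and 14.27, 13.76, 13.58, 13.80 and 14.06 in sham hearts. The groups overlapped, and the difference did not pass the test (adjusted p = 0.260). Psmb5, the chymotrypsin-like catalytic subunit and the target of the drug bortezomib, had 95% intervals of -0.41 to 0.17 at 12 h and -0.56 to 0.03 at 24 h. Psmb6, the caspase-like subunit, had log2 fold changes of 0.05 and -0.14, and Psmb7, the trypsin-like one, of 0.05 and 0.04.

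None of the 3 immunoproteasome genes was called at either time. The promoter windows of Psmb8 (chr20:4656982-4657281, minus strand) and Psmb10 (chr19:50743243-50743542, minus strand, both GRCr8 from RefSeq) are shown because they carry the interferon-stimulated element core (GAAA, any NN, then GAAA), marked in capitals on either strand. In Psmb8 a CCAAT box, read on the minus strand as ATTGG, is also in capitals.
Psmb8: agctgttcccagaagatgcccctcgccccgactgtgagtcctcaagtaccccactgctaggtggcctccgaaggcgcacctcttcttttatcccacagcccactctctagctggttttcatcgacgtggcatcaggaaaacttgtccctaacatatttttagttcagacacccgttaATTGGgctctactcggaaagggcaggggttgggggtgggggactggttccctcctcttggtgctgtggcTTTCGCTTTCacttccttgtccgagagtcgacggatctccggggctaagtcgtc
Psmb10: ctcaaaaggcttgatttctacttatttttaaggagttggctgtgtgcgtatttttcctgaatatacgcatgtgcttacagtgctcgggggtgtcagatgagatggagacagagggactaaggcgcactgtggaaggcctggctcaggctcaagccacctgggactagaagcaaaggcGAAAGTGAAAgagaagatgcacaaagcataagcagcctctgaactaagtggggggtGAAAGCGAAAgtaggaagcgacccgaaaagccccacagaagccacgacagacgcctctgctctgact
Psmb8 holds 1 interferon core, which begins 4 bases before the start, and Psmb10 holds 2, at 73 and 17 bases before it. The window of Psmb9, the third immunoproteasome gene, is not shown and holds no such core. Among the 39 member promoters 6 (15.4%) hold this core, those of Psma4, Psmb3, Psmb8, Psmb10, Psmd7 and Psme2, against 3.92% of all promoters. In RefSeq's gene order on chromosome 20, Psmb8 and Psmb9 alternate with the peptide transporter genes Tap1 and Tap2.

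Psmb8 read 7.02, 6.88, 7.07, 6.71 and 7.30 log2 in SAP 12 h hearts, 7.26, 6.58, 7.34, 7.09 and 6.59 in SAP 24 h hearts, and 7.05, 6.92, 7.20, 7.40 and 7.43 in sham hearts. The groups overlapped at both times, with log2 fold changes of -0.20 (-0.55 to 0.14, adjusted p = 0.639) at 12 h and -0.23 (-0.58 to 0.12, adjusted p = 0.545) at 24 h. Psmb9 read 8.24, 8.17, 8.00, 8.17 and 8.34 log2 in SAP 12 h hearts, 8.09, 8.15, 9.28, 8.48 and 8.34 in SAP 24 h hearts, and 8.58, 8.69, 8.00, 8.76 and 8.27 in sham hearts. At 12 h its log2 fold change was -0.28 (-0.68 to 0.13, adjusted p = 0.561). At 24 h it was 0.01 (-0.40 to 0.42), and that mean rests on 1 high array, replicate 3.

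Psmb10 read 6.52, 6.66, 6.37, 7.13 and 6.69 log2 in SAP 12 h hearts, 6.02, 6.43, 7.33, 6.5 and 6.80 in SAP 24 h hearts, and 6.87, 6.48, 6.54, 6.44 and 6.84 in sham hearts. Its log2 fold changes were 0.04 (-0.37 to 0.45) at 12 h and -0.02 (-0.43 to 0.40) at 24 h. SAP 24 h replicate 3 was the highest of its group for all 3 immunosubunits. Their mean difference from the sham mean was 0.55 log2 on that array and between -0.38 and -0.07 on the other 4 SAP 24 h arrays. The 8 measured neutrophil markers also averaged highest there, 6.57 log2 against 5.12 to 5.74 on the other 4. The macrophage and monocyte markers and the endothelial markers averaged highest on replicate 3 as well. The interferon response genes described below averaged highest on SAP 24 h replicate 4 (7.91 log2), where the mean difference of the immunosubunits was -0.07, the next highest after replicate 3. Replicate 3 came second for the interferon genes (7.45), above replicates 1, 2 and 5 (6.85, 6.97 and 6.91). The part of any of these lists in the value on replicate 3 was not tested.

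Because each immunosubunit displaces 1 constitutive subunit, the difference between both was also compared within arrays, where a shift of a whole array cancels. The size of such a difference between probe sets carries no meaning, only its change between groups. Psmb9 minus Psmb6 changed by -0.33 log2 in SAP 12 h against sham hearts (95% interval -0.68 to 0.04, exact two-sided permutation p = 0.0794, 0.476 after adjustment over 6 tests). For Psmb8 minus Psmb5 the change was -0.08 (-0.57 to 0.40) at 12 h and 0.04 (-0.43 to 0.51) at 24 h. For Psmb10 minus Psmb7 it was -0.01 (-0.42 to 0.36) at 12 h (-0.21 without the 4 atrium-rich arrays) and -0.06 (-0.56 to 0.45) at 24 h, and for Psmb9 minus Psmb6 at 24 h it was 0.15 (-0.37 to 0.67). None of the 6 passed the exact permutation test, whose smallest possible p was 0.00794. A p that misses the threshold does not show equal ratios, but none of the intervals reached above 0.67 log2.

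**Figure D3:**
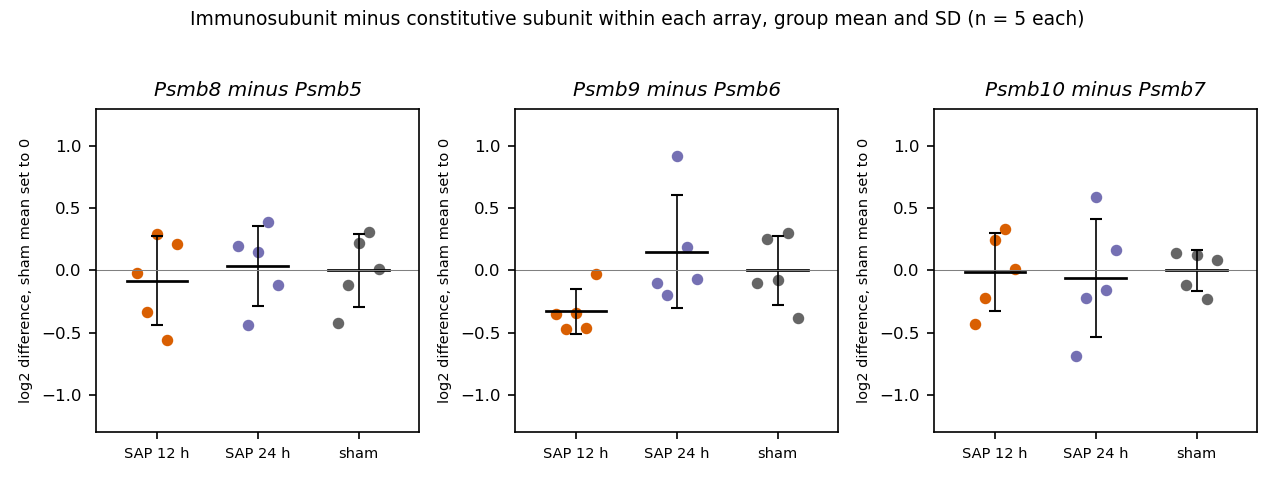
Each immunosubunit minus the constitutive subunit it replaces, in log2 within each array and with the sham mean set to 0, in SAP 12 h, SAP 24 h and sham hearts; bars give mean and SD (n = 5 each). Psmb9 minus Psmb6 averages -0.33 at 12 h, and SAP 24 h replicate 3 is the highest array of its group for Psmb9 minus Psmb6 and Psmb10 minus Psmb7.

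Genes of the interferon response were looked at beside the immunosubunits, since the immunosubunits belong to it. Of 21 measured genes, 1 rose and 4 fell at 12 h, with a median log2 fold change of -0.60. The falls were in the transcription factor Irf7 (-2.03), the ISG15 protease Usp18 (-1.62), Ifit1 (-1.65) and the chemokine Cxcl9 (-1.42), and the rise was in the checkpoint ligand Cd274 (0.95). At 24 h Irf9, a subunit of the interferon-activated transcription factor, fell by 0.97 and no other member passed, with a median of -0.27. Without the 4 atrium-rich arrays Irf7, Usp18 and Cxcl9 were still called lower at 12 h, whereas the adjusted p was 0.0592 for Ifit1, 0.055 for Cd274 and, at 24 h, 0.0936 for Irf9. The mean of the list varied within groups, between 6.64 and 7.14 log2 in SAP 12 h hearts, between 6.85 and 7.91 in SAP 24 h hearts and between 6.88 and 8.31 in sham hearts.

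Of 8 measured genes of class I antigen presentation, 1 rose and 0 fell at 12 h. It was Pdia3, a thiol oxidoreductase of the peptide-loading complex (log2 fold change 0.84, adjusted p = 0.00488). It read 14.53, 14.42, 15.42, 15.15 and 14.70 log2 in SAP 12 h hearts, against 13.87, 14.15, 14.15, 13.88 and 13.97 in sham hearts, without overlap, and was also called without the 4 atrium-rich arrays (0.64, adjusted p = 0.0324). The list's median was 0.15 at 12 h, and at 24 h no member passed and the median was 0.00.

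None of the 4 activators was called at either time. Psme1 and Psme2, which form an interferon-inducible ring on the core, had log2 fold changes of -0.07 (-0.35 to 0.21) and -0.10 (-0.42 to 0.23) at 12 h and of 0.00 (-0.28 to 0.28) and 0.01 (-0.32 to 0.33) at 24 h. Psme3, a nuclear ring activator, lay at 0.02 and -0.02, and Psme4, a nuclear activator linked to histone breakdown, at -0.20 and -0.05. Psme4 had its lowest value, 12.46 log2, in SAP 12 h replicate 1, whereas the mean of that group was 13.07. The name-only matches were lower in the mean of SAP hearts without passing the test. Psmc3ip had log2 fold changes of -0.33 at 12 h and -0.43 at 24 h (adjusted p = 0.371 and 0.195), and Psme3ip1 of -0.09 and -0.01.

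Between the SAP groups, 24 h against 12 h, no member was called either way by limma, beside a background of 0.69% of all probe sets (0.121% higher and 0.569% lower), and 5 members (11.6%) had an unadjusted p under 0.05, against 13.2% of all probe sets. Signs ran mostly downward: 32 of 43 log2 fold changes were negative (46.4% of all probe sets were), with a median of -0.07. All 7 constitutive beta subunits, all 10 non-ATPases and 5 of the 6 ATPases were negative, with medians of -0.14, -0.20 and -0.26. Centring each array on its median left 11 of 43 members and 1 of 16 regulatory particle genes positive, as on the deposited values. Repeated quantile normalization left 20 and 4 positive, so the split depended on the kind of scaling. Psmc4 had the largest difference, -0.62 (-0.98 to -0.26, adjusted p = 0.109), with 10.59, 10.91, 10.96, 10.71 and 10.46 log2 at 24 h against 11.68, 11.70, 10.68, 11.42 and 11.24 at 12 h. Only SAP 12 h replicate 3 lay among the 24 h values, and without it Psmc4 was called lower (log2 fold change -0.78, adjusted p = 0.0175). Without the 4 atrium-rich arrays it was called too (adjusted p = 0.0401). Psmd8, the leading gene at 12 h, had a log2 fold change of -0.50 between the times, with an interval of -0.91 to -0.09 and an adjusted p of 0.268.

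**Figure D4:**
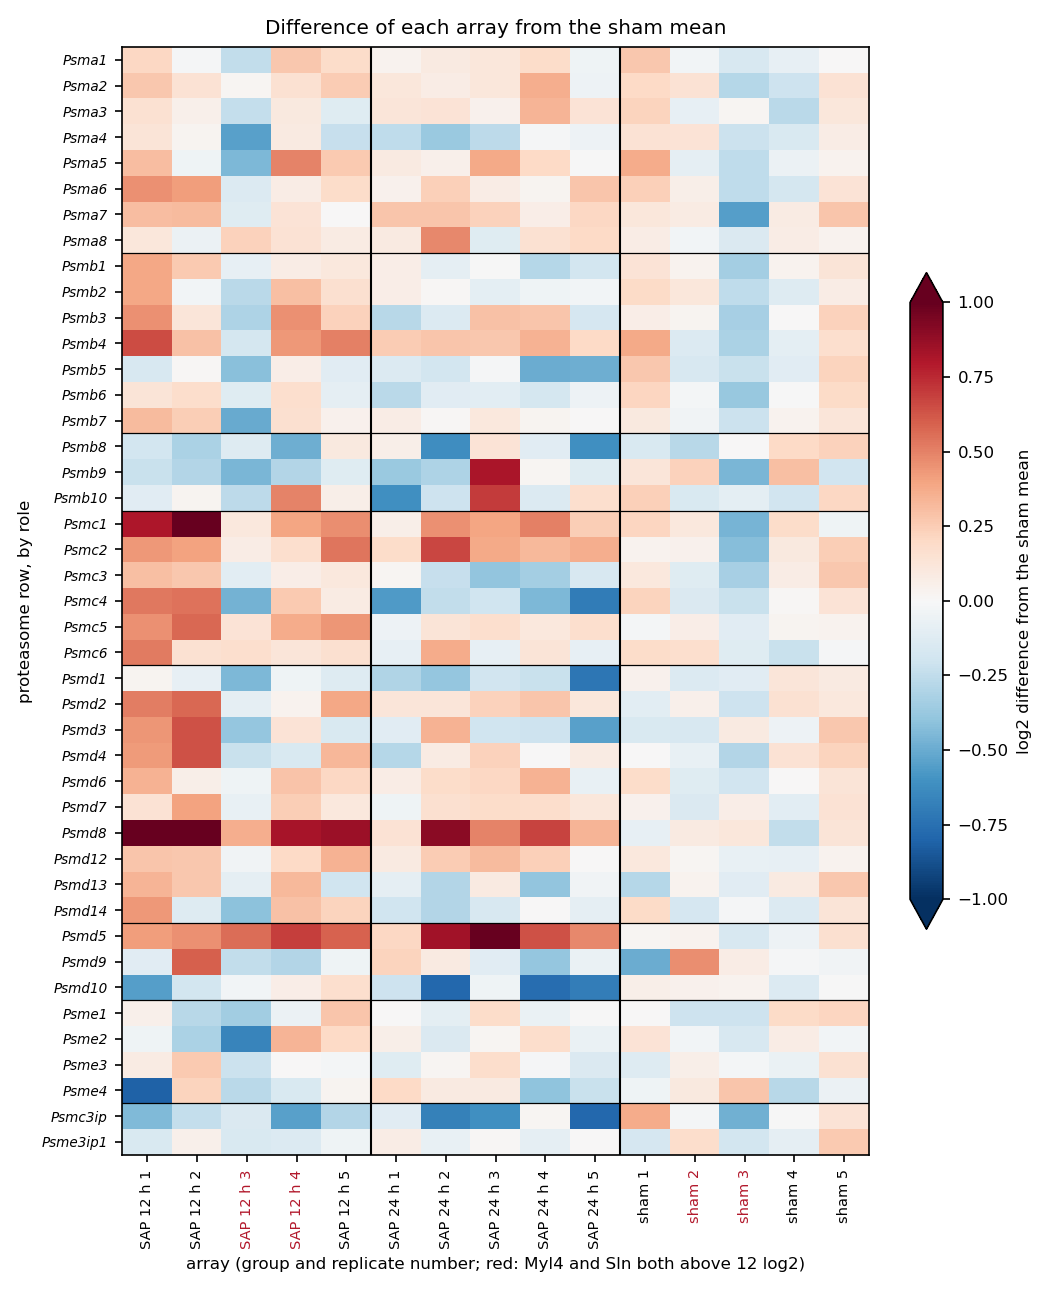
Difference of each array from the sham mean, in log2, for the 43 proteasome probe sets in order of role (rows) and the 15 arrays (columns: SAP 12 h, SAP 24 h, sham); the colour scale stops at 1 in either direction, and red labels mark the 4 atrium-rich arrays. Psmd8 and Psmd5 stand out in SAP arrays, and SAP 12 h replicate 3 and sham replicate 3 are low across most rows.

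The mean difference of the 41 proteasome members from the sham mean was 0.25, 0.22, -0.17, 0.17 and 0.16 log2 on the SAP 12 h arrays, -0.03, 0.05, 0.13, 0.03 and -0.06 on the SAP 24 h arrays, and 0.08, 0.00, -0.17, -0.02 and 0.12 on the sham arrays. The SAP 24 h arrays spread least. The lowest arrays were the atrium-rich replicates 3 of the SAP 12 h and sham groups. Both also had the lowest cardiomyocyte marker mean of their group (18.12 log2 in SAP 12 h, 18.03 in sham). Their fibroblast (13.27 and 13.60) and macrophage and monocyte (9.60 and 8.31) marker means were the highest of their groups. The part of these cells in the values was not tested. SAP 12 h replicate 3 was the lowest of its group for 33 of the 41 members and sham replicate 3 for 26 of 41. The other atrium-rich arrays did not share this: SAP 12 h replicate 4 was the lowest for 3 members and sham replicate 2 for 6. On the SAP 24 h arrays these counts were 12, 6, 5, 7 and 13. Whether atrial tissue has a part in these values was not tested beyond the fits with and without those arrays and the fit with the atrial marker mean as a covariate.

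Around the proteasome, the lists of partner genes gave few calls. Of 5 measured assembly factors and inhibitors outside the naming rule, Akirin2, which brings proteasomes into the nucleus, rose 12 h after SAP (log2 fold change 0.39, adjusted p = 0.0277). It read 13.40, 13.55, 13.53, 13.46 and 13.44 log2 in SAP 12 h hearts, against 13.15, 12.89, 13.21, 13.06 and 13.14 in sham hearts, without overlap. Its log2 fold change was 0.35 without the 4 atrium-rich arrays, where it was not called (adjusted p = 0.230). Of 13 ubiquitin-activating enzymes, shuttles and proteasome-bound factors, 0 were called at either time by limma, with 0 and 1 at an unadjusted p under 0.05, and their medians were 0.16 and 0.05.

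In the list around the transcription factor NRF1, which drives proteasome genes when proteasome capacity is short, Bach1, a repressor that pairs with small Maf proteins, rose at 12 h (0.63, adjusted p = 0.0208). Bach1 was also called without the 4 atrium-rich arrays (0.88, adjusted p = 0.0145), and the small Maf gene Mafk was added (0.83, adjusted p = 0.0394). All 6 measured genes of this list had positive signs at 12 h and at 24 h, with medians of 0.33 and 0.12. Among all probe sets 51.9% and 54.6% were positive. The lowest value of the list at 24 h was 0.002, and without the 4 atrium-rich arrays 5 of the 6 were positive at 24 h. The gene for NRF1 itself was not analysed here. Of 11 ubiquitin ligases known from muscle, Fbxo30, an F-box protein of muscle atrophy, rose by 0.78 log2 at 12 h (adjusted p = 0.00649) and by 0.70 at 24 h (0.0213). Fbxo21, another F-box protein, rose by 0.60 at 24 h (adjusted p = 0.0380). Fbxo30 was also called at both times without the 4 atrium-rich arrays (adjusted p = 0.024 and 0.0274), but Fbxo21 was not (0.0623). None of the 11 was called lower.

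Some macrophage, monocyte and neutrophil markers were higher in the 12 h group, and no lymphocyte marker was called. Of 12 macrophage and monocyte markers 5 were called higher at 12 h and 0 lower, and their mean was between 8.53 and 9.60 log2 in SAP 12 h hearts, 8.08 and 8.5 in SAP 24 h hearts, and 8.11 and 8.31 in sham hearts. Of 8 neutrophil markers 4 were called higher at 12 h, among them S100a9 (3.2) and Mmp8 (1.38), and 1 at 24 h. Their mean was between 5.79 and 6.66 log2 in SAP 12 h hearts, between 5.12 and 6.57 in SAP 24 h hearts and between 4.83 and 5.10 in sham hearts. The neutrophil markers Csf3r, Mmp9 and Fpr1 averaged 3.49, 3.85 and 4.06 log2 over all arrays. These values lay below 4.62, the median of the pancreatic acinar genes used as a guide to background, and Cxcr2 (4.85) lay near it. No defining marker of either type was listed at 0, a value that does not occur in the table. Of 7 measured lymphocyte markers none was called, and their mean lay between 4.86 and 5.06 log2 on every array. Cd3g, Cd3e, Cd79b and Cd3d averaged 2.90, 3.51, 3.54 and 4.45 log2, below the guide of 4.62, and Cd8a (4.64) lay near it. Only Nkg7 (6.46) and Cd4 (9.08) read well above it, so the list says little about lymphocytes. In the fit that leaves out the atrium-rich arrays, 2 macrophage and monocyte markers (C1qb and Cd14) and 4 neutrophil markers were called higher at 12 h. Of 6 endothelial markers 1, Vwf, was called higher at 12 h (1.11), and the list's signs were 4 positive and 2 negative, with a median of 0.36. At 24 h none was called by limma (3 at an unadjusted p under 0.05), with a median of 0.33. Of 6 fibroblast markers none was called at 12 h by limma (5 at an unadjusted p under 0.05, not all of them lower). The signs were 2 positive and 4 negative, between -1.41 for Lum and 0.40 for Dcn, with a median of -0.81. At 24 h 1, the collagen gene Col1a2, was called lower (-1.11), with 5 of 6 signs negative and a median of -1.07. Of 9 cardiomyocyte markers 1, the cardiac actin gene Actc1, was called lower at 12 h (-0.45), with 6 signs negative, 3 positive and a median of -0.06. At 24 h none was called by limma (1 at an unadjusted p under 0.05), with a median of -0.12. Without the 4 atrium-rich arrays Vwf (0.82, adjusted p = 0.161) and Actc1 (-0.54, adjusted p = 0.110) were not called, and Col1a2 was called lower at 24 h and at 12 h, as was Col3a1 at 12 h. The part of any of these cells in the values of Psmd8, Psmc5 and Psmd5 was not tested.

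The number of arrays, 5 per group, limits the precision. Standard errors had a median of 0.138 log2 among the members and of 0.150 over all probe sets. At 12 h the 95% interval lay within 0.5 log2 of 0 for 28 of the 43 members and within 1 log2 for 42, Psmd8 being the exception; at 24 h these counts were 30 and 43. The median SD within a group was 0.220, 0.157 and 0.197 log2 for the members in SAP 12 h, SAP 24 h and sham hearts, against 0.245, 0.212 and 0.210 for all probe sets.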

How the data were processed

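Expression of 23188 transcript clusters was measured on 15 arrays of rat heart RNA, 5 per group, grouped by their titles and sources. The deposited values, given to 2 decimals, ran between 2.51 and 19.83 and were read as log2 expression, a scale that no label states. The authors normalized them together. Per the submitters' processing notes they used Affymetrix Expression Console (version not given in the sources used here). RMA rests on the name of the deposited table. Both deposited tables hold identical values (largest difference 0), and no pair of arrays was identical. Gene symbols came from the GEO platform annotation, and all 43 member symbols equal those in RefSeq.

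All 15 arrays entered 1 fit of group means (lmFit and eBayes of limma 3.58.1, R 4.3.3), with no filter and no fold minimum. P-values were adjusted over all 23188 probe sets by the Benjamini-Hochberg method, and an adjusted p under 0.05 was called. Standard errors and 95% intervals of single probe sets are limma's. Immunosubunit minus constitutive subunit was compared by exact two-sided permutation over arrays (252 splits). The 95% intervals of these differences span the shifts for which the permutation p stayed above 0.05. The fit was tested on simulated data. The design gives 5 hearts per group, so each array was taken as 1 animal.

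The members and lists were chosen with earlier results of these data known. Named were all called members, Psmb5 to Psmb10, the highest and lowest member of each role in each comparison with sham, the name-only matches, and called genes of the other lists (at most 4 each); Psmd4, Psmd14, Psmd9, Psme1 and some others were named after their values were seen. Promoters of 39 of 43 members were in the RefSeq table (GRCr8). RefSeq lists near-copies of Psmb3 and Psmb6, whose transcripts a probe set could also read. Alternatives were array scaling, low-value filters of 25% and 50%, other variance models and weights, fewer groups, a replicate block, leaving out each array and a threshold of 0.01. After the data were seen, an atrial covariate and a fit without the 4 atrium-rich arrays, for members and lists, were added.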

Additional observations from a re-analysis of the deposited data

Results flagged for a closer look

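In 5 of 129 groups of 5 arrays (43 members in 3 groups), 1 array lay apart from the other 4 by a gap of more than 0.71 of the group's range; chance gives this in about 1 group in 20. Psmc6, an ATPase, read 12.66 log2 in SAP 12 h replicate 1, against 12.26 to 12.31 in the other arrays of its group. Psmd9, an assembly chaperone, read 8.53 in SAP 12 h replicate 2, against 7.64 to 7.89. Psmc5 read 12.18 in SAP 24 h replicate 1, against 12.34 to 12.40. In sham replicate 3, 2 core subunits stood low: Psma7 read 14.79, against 15.42 to 15.62 in the other sham arrays, and Psmb1 read 12.28, against 12.66 to 12.76. Sham replicate 3 is the atrium-rich array that was the lowest of its group for 26 of 41 members.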

How the results depend on the processing

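No call of a member changed direction under the alternatives that were run, but values near 0 that were not called took both signs. Members called higher at 12 h numbered 3, but 1 at adjusted p under 0.01 and 1 without the 4 atrium-rich arrays (Psmd8 in both), and 1 to 4 when each array was left out: 1 without sham replicate 3, sham replicate 4 or SAP 12 h replicate 4, and 4 without SAP 12 h replicate 3, which added Psmc1. Members called higher at 24 h numbered 1, but 0 at adjusted p under 0.01 and 0 without the atrium-rich arrays (1 to 1 with each array left out); called lower, 0, but 0 to 1 (Psmd10, without SAP 24 h replicate 3). For 24 h against 12 h, 0 were called lower, but 1 with the atrial covariate, 1 without the atrium-rich arrays and 0 to 1 with each array left out (Psmc4, without SAP 12 h replicate 3). The fit without the atrium-rich arrays has fewer SAP 12 h and sham arrays; otherwise the cause was not tested. The replicate block left 2 members called at 12 h (Psmc5 lost, adjusted p = 0.0566), 1 at 24 h and 0 between the times. Same-numbered arrays of different groups had deviations correlated between -0.17 and 0.26, over 0.1 in 2 of 15 pairs, so the numbers were not taken as pairs. Psmc5 was also lost with only the compared groups fitted (0.0784), and Psmc1 was gained without the lowest 50% of probe sets (0.0423) and with the atrial covariate (0.0356). The median log2 fold change of all members stayed between 0.05 and 0.19 at 12 h and between -0.16 and -0.01 for 24 h against 12 h, and at 24 h it took both signs (-0.06 to 0.07). Psmb10 minus Psmb7 at 12 h, -0.01 as deposited, was 0.0576 under repeated quantile normalization and -0.21 without the atrium-rich arrays. With each array left out, the change of Psmb8 minus Psmb5 ran between -0.187 and 0.0375 at 12 h and between -0.069 and 0.155 at 24 h, that of Psmb9 minus Psmb6 between -0.42 and -0.25 at 12 h and between -0.043 and 0.237 at 24 h, and that of Psmb10 minus Psmb7 between -0.098 and 0.092 at 12 h and between -0.226 and 0.0945 at 24 h. Over all probe sets 1140 were called at 12 h, 782 at 24 h and 160 between the times. These counts moved by more than 1.5 times at adjusted p under 0.01 (507, 255 and 40), without the atrium-rich arrays (598, 500 and 85), with the atrial covariate (503 at 24 h and 83 between the times), with array weights (1263 at 24 h), with only the compared groups (1230 at 24 h and 75 between the times) and with each array left out (420 to 1001 at 24 h and 73 to 398 between the times). At 24 h the split of 286 higher and 496 lower became 364 and 435 under repeated quantile normalization. Signals near background limit Psma8 most.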
